A study of Mus musculus with 16 samples.

Results

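The replication-dependent histone genes encode the H1, H2A, H2B, H3 and H4 proteins that package newly made DNA. They were taken here as every protein-coding gene of the GENCODE M21 mouse annotation, on the GRCm38 build, whose symbol begins with Hist1h, Hist2h, Hist3h or Hist4h. This rule found 67 of the 55604 genes listed in the data. The Hist1 cluster on chromosome 13 held 54 of them, the Hist2 cluster on chromosome 3 held 10, Hist3 on chromosome 11 held 2, and Hist4 on chromosome 6 held 1. By class there were 6 H1, 18 H2A, 18 H2B, 12 H3 and 13 H4 genes.

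RNA-Seq had been done on tumor-associated macrophages (TAMs) from the peritoneal cavity of C57BL/6 mice that carried ID8, a mouse ovarian cancer line. The Tim-4+ TAMs were collected with beads against Tim-4, a receptor for phosphatidylserine that marks resident peritoneal macrophages, and the Tim-4- TAMs were then enriched with beads against F4/80, a macrophage surface protein. Both groups came from tumor-bearing mice, so no library represented a healthy peritoneum. The design held 4 pairs, numbered 793, 784, 783 and 779, with 1 Tim-4+ and 1 Tim-4- library each and 2 sequencing lanes per library. Per the study's methods the mice were females of 6 to 8 weeks, and the TAM subsets were taken at 6 to 7 weeks of tumor growth. How many mice gave a library is not stated in the labels, and p-values measure the spread between these samples. RNA came from bulk cells, in which fewer cells of a type and less RNA per cell cannot be told apart.

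Most replication-dependent histone mRNAs have no intron and no poly(A) tail. They end shortly after a conserved stem-loop that the stem-loop binding protein holds, and they rise when a cell enters S phase and are degraded when DNA synthesis stops. A few members, among them Hist1h1c, Hist1h2bc and Hist2h2be, are known also to give polyadenylated mRNA, which can be made outside S phase. Linker histone H1 binds DNA between nucleosomes, and H2A, H2B, H3 and H4 form the nucleosome core.

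The total per library was 53527928 to 69594245 counts, so that 3 counts equalled 0.0431 to 0.0560 CPM, the usual depth-scaled count, before TMM scaling (a correction for library composition). Timd4, which encodes Tim-4, lay at 524.3 to 1744 CPM in the Tim-4+ libraries and at 1.97 to 84.98 CPM in the Tim-4- libraries. The 8 macrophage markers summed to 43300 to 55700 CPM in the Tim-4+ libraries, against 20900 to 33400 CPM in the others. Most of this sum was Lyz2, at 33400 to 46900 CPM against 16100 to 27100 CPM. Of the 8, 5 were higher and 1 lower in Tim-4+ TAMs, while Csf1r and Fcgr1 passed in neither direction. The 12 tumor and mesothelial markers summed to 116 to 418 CPM in the Tim-4+ and 471 to 2220 CPM in the Tim-4- libraries, with 11 of 12 lower in Tim-4+ TAMs. Of the T cell, B cell, dendritic cell, granulocyte and mast cell, and erythroid markers, 4, 6, 7, 5 and 3 were tested, of which 1, 2, 1, 1 and 0 were lower and 0, 0, 1, 0 and 1 were higher in Tim-4+ TAMs. The T cell markers summed to 2.02 to 4.48 CPM against 6.36 to 13.8 CPM, and Cd3d, Cd3e and Cd3g were below the filter on low counts. Markers were called higher or lower at an adjusted p under 0.05 in edgeR's quasi-likelihood test. By the same limit 8.97% of all genes tested were higher and 8.43% lower in Tim-4+ TAMs.

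The sequence that defines the end of these mRNAs was searched for in the GENCODE M21 transcripts. The pattern was a 6-base stem, a 4-base loop and the exactly complementary 6 bases, 16 bases in all. The stem had to be GG followed by 4 bases of C or T, so its first bases were partly set by the search. This pattern was found in 46 of the 67 members, among them 12 of 13 H4 genes. Those 12 carried a stem that began GGCCC in 10 genes and GGTCC in 2, while all 34 stem-loops of the other classes began GGCTC. The most common form was shared by 26 members. A transcript annotated without its 3′ end cannot show the element, so members without a match are not shown to lack it. Among those without a match, Hist1h2bl and Hist1h4k are annotated with only 381 and 312 bases. The stem-loops are shown, in capitals with 5 flanking bases on each side, for the H1, H2B and H4 members with the most counts among those with a stem-loop, for Hist4h4, which stands alone in its cluster, and for Hist1h3a, which was the tested member that stopped soonest after the stem-loop.
Hist1h1c: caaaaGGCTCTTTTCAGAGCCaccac
Hist1h2bg: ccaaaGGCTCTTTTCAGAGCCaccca
Hist1h3a: ccaaaGGCTCTTTTCAGAGCCacaca
Hist1h4i: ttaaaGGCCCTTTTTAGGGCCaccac
Hist4h4: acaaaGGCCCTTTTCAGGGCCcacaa

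The annotated transcripts differed in how far they ran past this element. The Hist1h1c transcript has its stem-loop at positions 705 to 720 and runs for 840 further bases. In Hist1h4i 330 bases follow, in Hist1h2bg 155, and in Hist4h4 2445, whereas the Hist1h3a transcript stops 37 bases after the stem-loop. A poly(A) signal, AATAAA or ATTAAA, stood in the last 50 bases of at least 1 transcript of 17 members, 7 of them tested. The last 30 bases are shown for 4 members, with the signal in capitals. Hist2h2be is among them because no stem-loop of this form was found in it.
Hist1h1c: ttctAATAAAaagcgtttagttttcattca
Hist1h4i: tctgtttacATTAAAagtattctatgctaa
Hist2h2be: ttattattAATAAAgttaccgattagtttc
Hist3h2ba: attAATAAAtttggttcaattttggccaca

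Promoters, as 250 bases before to 50 after the RefSeq start on GRCm38.p6, were matched for 61 members. The CCAAT box, searched on both strands, was in 52 of these 61 promoters (85.25%) and in 37.41% of all 32851 promoters of the table. It was in all 49 matched promoters of the H1, H2A, H2B and H3 classes and in 3 of 12 of the H4 class. TATAAA, also searched on both strands, was in 35 of the 61 (57.38%, against 13.62% of all promoters). Some of these held only the reverse form TTTATA, as in Hist1h2bf. AAACACA, an element described in H1 promoters and likewise searched on both strands, was in 5 of 6 H1 promoters and in 7.18% of all. The promoter of Hist1h1c, by far the most abundant member, is shown with CCAAT and AAACACA in capitals. It spans chr13:23738557-23738856 on the plus strand and holds no TATAAA.
Hist1h1c: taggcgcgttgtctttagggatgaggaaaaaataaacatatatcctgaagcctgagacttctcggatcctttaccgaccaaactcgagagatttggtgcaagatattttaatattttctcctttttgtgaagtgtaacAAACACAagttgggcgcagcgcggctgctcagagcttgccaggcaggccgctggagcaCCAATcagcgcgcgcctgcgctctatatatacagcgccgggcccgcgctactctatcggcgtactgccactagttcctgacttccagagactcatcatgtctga

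Few of the 67 members were measured above the filter. Only 16 reached 10 counts in 4 or more of the 8 libraries. They were 4 of 6 H1, 2 of 18 H2A, 5 of 18 H2B, 3 of 12 H3 and 2 of 13 H4 genes. The other 51 had 0 to 100 counts in all 8 libraries together (median 15), and 9 of them had 0. All 67 together held 65174 counts, 0.0137% of all counts, and Hist1h1c alone held 78.17% of them. The plot of levels by library shows the 16 tested members.

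**Figure D1:**
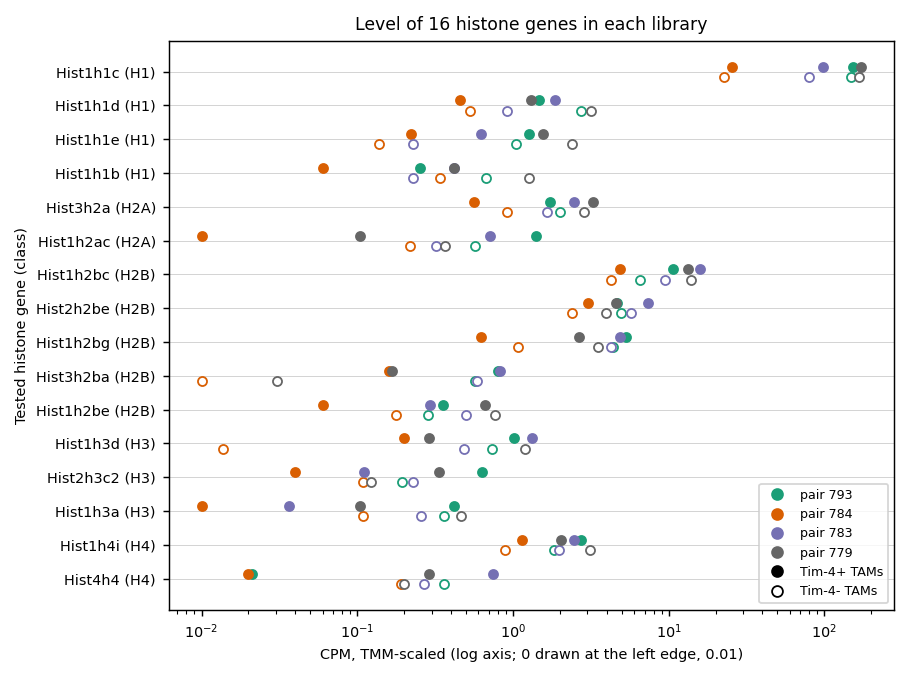
TMM-scaled CPM (x axis, log scale, with 0 drawn at 0.01) of the 16 tested histone genes, with filled points for Tim-4+ and open points for Tim-4- libraries and a color for each pair. Hist1h1c lies between 22.8 and 173 CPM, Hist1h2bc between 4.25 and 15.9, and 9 members have a mean below 1 CPM. The orange points, pair 784, are mostly the leftmost of each symbol.

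The low counts of most members went with their annotated 3′ end. Of the 23 members whose transcript ran over 100 bases past the stem-loop, 12 were tested, and their median was 101 counts over all libraries (range 0 to 50949). Of the 23 members that stopped within 100 bases, 1 was tested, Hist1h3a, and the median was 16 counts (range 0 to 109). Per kilobase of annotated exon the medians were 86.2 and 30.2 counts. The 21 members without a found stem-loop, some of which may be annotated without their 3′ end, had a median of 12 counts. Those tested were Hist1h1b, Hist1h2bc and Hist2h2be. The limit of 100 bases was chosen after the counts were seen.

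How well reads could be placed moved in the same direction. Windows of 50 bases, the length of 1 read, were compared with annotated transcripts and not with the whole genome. The study's methods name paired-end reads, and the part of the second read in placement was not measured. Of all 50-base windows of a member's transcripts, a median of 76.5% (36.5% to 100%) occurred in no other gene for the 16 tested members and 34.2% (0% to 100%) for the 51 others. Reads that align to several places were not counted on a gene, and 5 members had no window of their own. Among members with at least 50% of windows of their own, 11 of 20 with a long 3′ end and 1 of 7 with a short 3′ end were tested. The separate parts of both features in the counts were not tested. Hist1h1e overlaps Hist1h2be, Hist3h2a overlaps Trim17 and Hist1h2ac overlaps Gm24991 on the same strand, so that the counts of these 4 histone genes are uncertain.

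**Figure D2:**
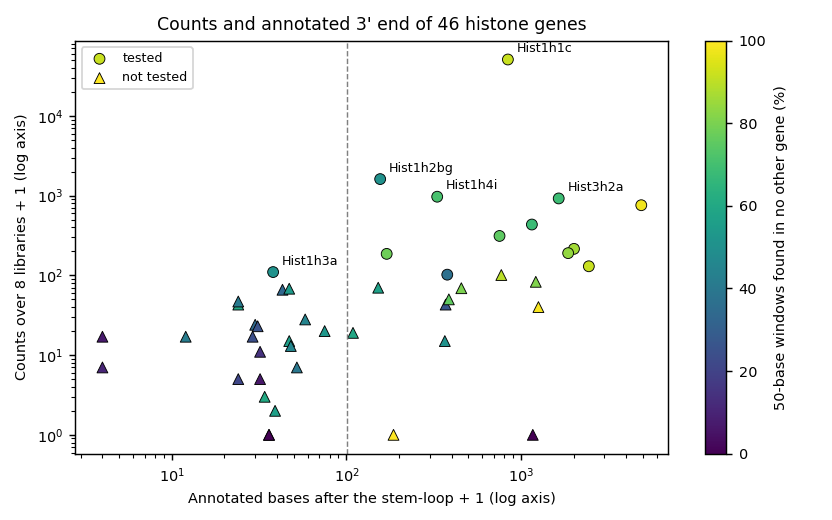
Counts over the 8 libraries plus 1 (y axis, log scale) against annotated bases after the stem-loop plus 1 (x axis, log scale) for the 46 members with a stem-loop, with circles for tested members, triangles for the others, and color for the percentage of 50-base windows found in no other gene. Of the points left of the dashed line at 100 bases, Hist1h3a is the only circle, at 109 counts.

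The study's methods describe removal of ribosomal RNA, which would keep RNAs without a poly(A) tail. Counts are given here for 6 RNAs of this kind. The nuclear 7SK RNA (Rn7sk) had 31 to 94 counts per library, telomerase RNA (Terc) 0 to 8, the Y RNAs Rny1 and Rny3 0 to 11 and 0 to 4, Scarna2 0 to 6 and Snord118 0 to 7. These genes overlap no other annotated gene and were chosen after their values were seen. Reads that align to several places were not counted for them either, and the part of RNA length was not tested. The part of library preparation in the low histone counts was not tested.

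The central comparison was between Tim-4+ and Tim-4- TAMs within the 4 pairs. None of the 16 tested histone genes passed an adjusted p of 0.05 in either direction in edgeR's quasi-likelihood test, and 0 had an unadjusted p under 0.05. Of all 16861 genes tested, 8.97% rose and 8.43% fell in Tim-4+ relative to Tim-4- TAMs. In DESeq2 the count of members that passed was also 0, with 1 at an unadjusted p under 0.05. The log2 fold changes ran from -1.72 to 1.37, with 8 above and 8 below 0 and a median of 0.06, beside a median of -0.0012 over all genes. Their standard errors were 0.10 to 1.0 (median 0.47), against a median of 0.20 for all genes. Among genes with a mean of 0.2 to 0.5 CPM, a range that holds 7 of the 16 members, only 1.67% of 1971 were higher and 1.83% lower. The ranges of the groups stood apart in 0 of the 16 members and in 12.8% of all genes tested. Members below the filter are not part of these values, so the even split around 0 holds for the 16 tested members only. With the filter dropped 58 members were tested. Their median lay further below 0 than the -0.05 over all genes, as given in the section on processing.

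Hist1h1c encodes H1.2, a linker histone. It is the member measured most precisely and lies at chr13:23738808-23740367 on the plus strand. Its level in Tim-4+ TAMs was 152, 25.5, 98.3 and 173 CPM in pairs 793, 784, 783 and 779, and in Tim-4- TAMs it was 148, 22.8, 79.5 and 168 CPM. Within each pair the subsets lay close together, with Tim-4+ TAMs the higher in 4 of 4. The groups overlapped almost fully. The fitted log2 fold change was 0.14 (SE 0.10, a 1.10-fold difference, adjusted p = 0.394 in edgeR's quasi-likelihood test). With total counts in place of TMM scaling it was -0.22, when the median over all genes was -0.36. The SD of the log2 CPM between pairs was 1.26 in Tim-4+ and 1.32 in Tim-4- TAMs, while the SD of the within-pair log2 ratio was 0.13.

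The other H1 genes were far less abundant than Hist1h1c. Hist1h1d, Hist1h1e and Hist1h1b, which encode H1.3, H1.4 and H1.5, averaged 1.27 ± 0.586, 0.916 ± 0.607 and 0.287 ± 0.170 CPM (SD, n = 4) in the Tim-4+ libraries. In Tim-4- TAMs their means were 1.84 ± 1.31, 0.949 ± 1.04 and 0.626 ± 0.462 CPM. Hist1h1b, the member of this group best known as S phase restricted, had 12, 3, 23 and 20 counts in Tim-4+ and 45, 25, 18 and 82 counts in Tim-4- TAMs. It was lower in Tim-4+ TAMs in 3 of 4 pairs, with the opposite order in pair 783. Its log2 fold change of -1.10 (SE 0.63) had an adjusted p of 0.261 in edgeR's quasi-likelihood test.

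The H2B class was the second in counts, with 9136 over all libraries. Hist1h2bc had 10.7, 4.84, 15.9 and 13.4 CPM in Tim-4+ TAMs of pairs 793, 784, 783 and 779, and 6.58, 4.25, 9.51 and 13.9 CPM in Tim-4- TAMs. Tim-4+ TAMs were higher in 3 pairs and level in pair 779, and the groups overlapped. Its log2 fold change of 0.40 (SE 0.19) had the lowest p of all members, 0.0679 unadjusted and 0.181 adjusted in edgeR's quasi-likelihood test. Hist1h2bg averaged 3.36 ± 2.17 and 3.31 ± 1.53 CPM (SD, n = 4) in the Tim-4+ and Tim-4- groups. Hist2h2be averaged 4.90 ± 1.80 and 4.25 ± 1.44 CPM. They were higher in Tim-4+ TAMs in 2 and 3 of 4 pairs. Their log2 fold changes, fitted with the pair block, were -0.16 (SE 0.26) and 0.21 (SE 0.20). Hist3h2ba, in the small Hist3 cluster, was higher in Tim-4+ TAMs in 4 of 4 pairs, but on counts of 38, 8, 45 and 8 against 38, 0, 46 and 2. Its log2 fold change was 1.37 (SE 0.74, adjusted p = 0.242 in edgeR's quasi-likelihood test).

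For H2A, Hist3h2a averaged 2.01 ± 1.16 CPM in the Tim-4+ and 1.87 ± 0.813 CPM in the Tim-4- group (SD, n = 4), and its log2 fold change was -0.02 (SE 0.30). Hist1h2ac had 67, 0, 39 and 5 counts in Tim-4+ and 38, 16, 25 and 24 counts in Tim-4- TAMs, with no shared order over the pairs.

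For H3, Hist1h3a had 20, 0, 2 and 5 counts in Tim-4+ and 24, 8, 20 and 30 counts in Tim-4- TAMs. This was the lowest fitted log2 fold change of the members, -1.72 (SE 0.83, adjusted p = 0.190 in edgeR's quasi-likelihood test), and the pair 793 libraries went the other way after scaling. Hist1h3d had 48, 10, 73 and 14 counts against 49, 1, 38 and 78, and the sign of the difference was not shared by all pairs. For H4, Hist1h4i averaged 2.10 ± 0.701 CPM in the Tim-4+ and 1.96 ± 0.919 CPM in the Tim-4- group (SD, n = 4), with a log2 fold change of 0.15 (SE 0.30). Hist4h4 had 1, 1, 41 and 14 counts against 24, 14, 21 and 13.

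Per length, as CPM per kilobase of exon (RPKM) over the 8 libraries, Hist1h1c was first at 69.5 ± 39.4 (SD, n = 8). It was followed by Hist1h2bc at 8.55 ± 3.77, Hist1h2bg at 5.40 ± 2.81, Hist1h4i at 2.79 ± 1.05 and Hist2h2be at 1.75 ± 0.590. The mean ± SD of Hist1h1c stood apart from that of Hist1h2bc, while those of Hist1h2bc and Hist1h2bg, and of Hist1h4i and Hist2h2be, overlapped. These SDs pool both subsets of the 4 pairs and include the difference between pairs, and genes were not compared within a library. Of the replication-independent variants, mean RPKM was 529 for H3f3b, which encodes the replacement histone H3.3, 54.0 for H1f0, the linker histone of nondividing cells, and 22.6 for H2afz, which encodes H2A.Z.

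Summed over all members of a class, none moved one way by more than its spread over pairs. The mean within-pair log2 ratio of Tim-4+ over Tim-4- TAMs was 0.12 ± 0.14 (SD, n = 4 pairs) for H1, -0.10 ± 0.68 for H2A, 0.21 ± 0.26 for H2B, 0.04 for H3, with pairs from -1.48 to 0.72, and -0.18 ± 0.56 for H4. Without Hist1h1c the H1 sum gave -0.34 ± 0.82. No test was run on these sums. The values depend on the scaling, since total counts per library in place of TMM moved the median of all genes to a log2 fold change of -0.36 and the H1, H2B and H3 sums to -0.24, -0.15 and -0.32. In pair 779 the H3 and H4 sums were 0.957 and 2.91 CPM in Tim-4+ and 2.67 and 5.33 CPM in Tim-4- TAMs. In pair 783 all class sums were the higher in Tim-4+ TAMs, with log2 ratios from 0.32 for H1 to 0.72 for H3.

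**Figure D3:**
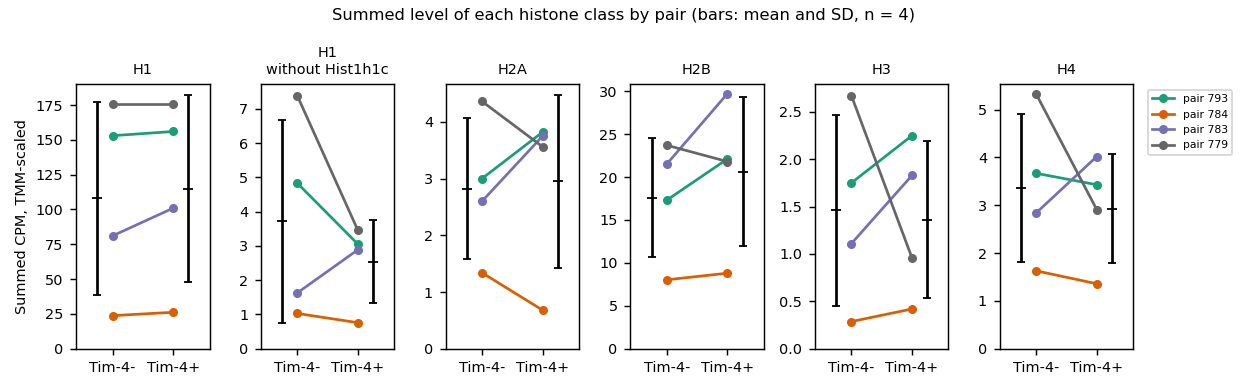
Summed TMM-scaled CPM of all members of a class (y axis, from 0) in Tim-4- and Tim-4+ TAMs, with a line for each pair and the mean and SD of 4 libraries beside it. The H1 lines are nearly flat between 23.8 and 176 CPM, the lines of H3 and H4 cross, and pair 784 is lowest throughout.

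The members shared their lowest pair. In 15 of the 16 tested members the lowest Tim-4+ library and the lowest Tim-4- library were both of pair 784. The exception was Hist1h1b, whose lowest Tim-4- library was of pair 783. Of all genes tested, 14.7% had pair 784 as the lowest in both subsets, and for each of the other pairs the count among histone genes was 0. Relative to the mean of the other 3 pairs, on a log2 scale with 0.1 CPM added, the members in pair 784 ranged from -2.66 to -0.81 (median -1.52) in Tim-4+ TAMs and from -2.92 to -0.34 (median -1.14) in Tim-4- TAMs. The medians over all genes were 0.01 and -0.01. This pattern was noticed in the data, and no test was run on it. The pair is called 784 as in the labels, while a supplementary table of the study gives the pairs their numbers in the reverse order, so the number itself is uncertain.

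Hist1h1c was far lower in pair 784. It differed there by -2.43 in Tim-4+ and -2.46 in Tim-4- TAMs on that log2 scale, and among the 10287 genes averaging 5 CPM or more it ranked 7 by the smaller of its falls in the 2 subsets. Hist1h1e (-1.88 and -2.05), Hist1h2bg (-2.54 and -1.81) and Hist1h1d (-1.54 and -1.74) were next among the members by the smaller fall. Hist2h2be was nearer to the other pairs, at -0.81 and -0.99. The pair 784 libraries had 57687868 and 61946676 counts, within the range of the others.

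**Figure D4:**
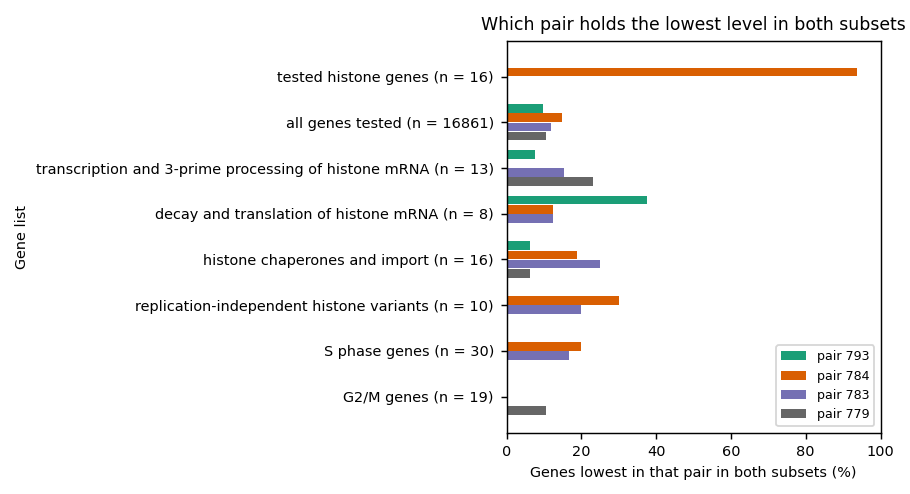
Percentage of genes (x axis) for which the lowest Tim-4+ and the lowest Tim-4- library were both of the named pair, for the tested histone genes, all genes tested and 6 related lists. Pair 784 takes 93.8% of the histone genes, 14.7% of all genes, 30% of the replication-independent variants and 20% of the S phase genes.

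Genes of the S phase program were also lowest in pair 784 as a sum, but by little. The sum was 675 CPM in the Tim-4+ and 1040 CPM in the Tim-4- library of pair 784, beside 689 to 949 and 1050 to 1460 CPM in the other pairs, and 6 of 30 were lowest in pair 784 in both subsets. None of the 19 tested G2/M genes was. Of 13 genes for transcription and 3′ processing of histone mRNA it was 0, of 8 for its decay and translation 1, of 16 chaperone and import genes 3, and of 10 replication-independent variants 3. Mki67, a marker of cycling cells, was at 145 and 169 CPM in the Tim-4+ and Tim-4- libraries of pair 784, within the range of the other pairs.

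The machinery that handles histones was next compared between the subsets in the same test. Of the 13 genes for transcription and 3′ processing, 0 were higher and 1 lower in Tim-4+ TAMs, a share near the 8.43% lower over all genes. This was Slbp, which encodes the stem-loop binding protein, with 28.3, 22.7, 24.7 and 33.8 CPM in Tim-4+ and 32.8, 33.9, 30.8 and 49.1 CPM in Tim-4- TAMs of pairs 793, 784, 783 and 779. It was lower in Tim-4+ TAMs in 4 of 4 pairs, although the groups overlapped. Its log2 fold change was -0.41 (SE 0.11, adjusted p = 0.0426 in edgeR's quasi-likelihood test). Leaving out any 1 pair took Slbp above the threshold, with adjusted p from 0.0596 to 0.147, and without the pair block it was 0.261. Npat, the coactivator of histone gene transcription, had a log2 fold change of -0.06 (SE 0.13). Of 8 genes for decay and translation of histone mRNA, 0 passed by this test, with 1 at an unadjusted p under 0.05, and in DESeq2 1 was higher.

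The histone chaperones, which carry new histones to DNA, were then examined. Of 16 tested, 0 were higher and 8 lower in the Tim-4+ group, beside 8.97% and 8.43% over all genes, with a median log2 fold change of -0.49. Nasp, a chaperone of free H3 and H4, averaged 25.8 against 37.0 CPM and had a log2 fold change of -0.52 (SE 0.11). Mcm2, part of the replicative helicase that also binds H3 and H4, had 47.8 and 85.6 CPM (-0.84, SE 0.19), and Chaf1a, the large subunit of chromatin assembly factor 1, had 13.6 and 23.1 CPM (-0.79, SE 0.18). Rbbp4 had 74.1 and 98.4 CPM (-0.41, SE 0.11). Their adjusted p was 0.0197, 0.0242, 0.0251 and 0.0363 in edgeR's quasi-likelihood test. All 4 were lower in Tim-4+ TAMs in 4 of 4 pairs. The other 4 that were lower were Chaf1b, Hat1, Tonsl and Mms22l.

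Of 10 tested replication-independent variants, 0 were higher and 1 lower, a share near the 8.43% lower over all genes. H2afz had 35.2, 34.8, 26.2 and 38.9 CPM in Tim-4+ and 44.1, 38.0, 45.1 and 59.2 CPM in Tim-4- TAMs, lower in 4 of 4 pairs (log2 fold change -0.46, SE 0.13, adjusted p = 0.0486 in edgeR's quasi-likelihood test). With any 1 pair left out its adjusted p was 0.0786 to 0.159, and without the pair block it was 0.182. H3f3b and H1f0 had log2 fold changes of 0.29 (SE 0.15) and -0.66 (SE 0.22), with adjusted p of 0.198 and 0.0798.

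In the S phase list 13 of 30 genes were lower and 0 higher in Tim-4+ TAMs, with a median log2 fold change of -0.66. In the G2/M list 7 of 19 were lower and 0 higher, with a median of -0.48. Over all genes tested 8.43% were lower and 8.97% higher. Slbp is also 1 of the 13 S phase genes. Pcna, the clamp of DNA polymerase, averaged 81.0 against 105 CPM (log2 fold change -0.36, SE 0.10, adjusted p = 0.0437 in edgeR's quasi-likelihood test), while Mki67 did not pass (-0.22, SE 0.14, adjusted p = 0.298). The counts of genes that were lower fell to 0 for the chaperones, S phase and G2/M lists without pair 784, and to 0, 2 and 1 without pair 779. Without pair 793 the chaperones that were lower numbered 3. Without the pair as a block they were 0 for all 3 lists. The tumor and mesothelial markers given above were lower in the same Tim-4+ libraries, and their part in these lists was not tested.

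**Figure D5:**
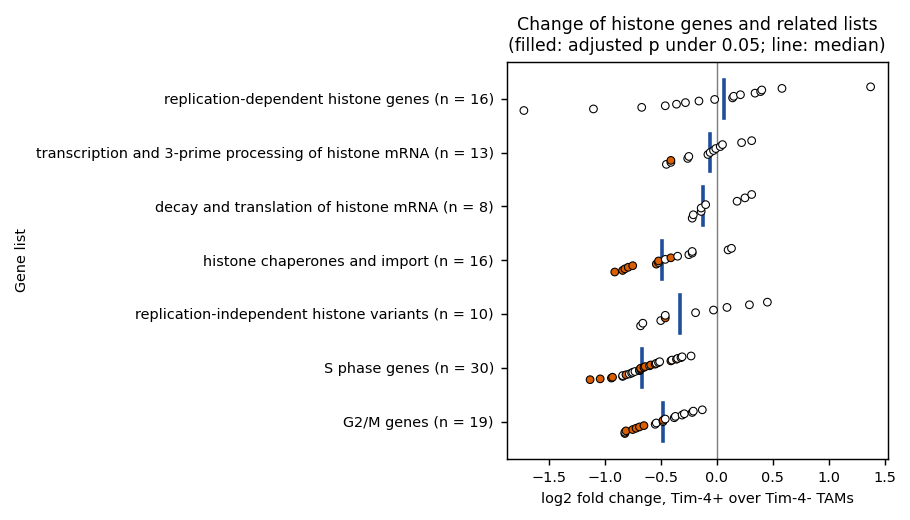
Log2 fold change of Tim-4+ over Tim-4- TAMs (x axis) for each tested gene of the histone genes and 6 related lists, filled where the adjusted p was under 0.05, with a line at the list's median. The histone genes spread from -1.72 to 1.37 around 0.06 with no filled point, while the medians of the chaperone, S phase and G2/M lists are -0.49, -0.66 and -0.48.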

How the data were processed

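RNA-Seq covered 8 libraries of TAMs in 4 pairs, sequenced on 16 lanes. The files deposited hold whole-number counts of reads for each gene, 1 file per lane, not normalized. The submitters' processing notes name FastQC 0.11.3, TopHat2 2.0.13, Cufflinks, Cuffdiff 2.2.1 and GRCm38 (mm10). The study's methods name a stranded kit after removal of ribosomal RNA. The counter and its use of strand are not given in the sources used here. In nearly all lane files more genes held 4 counts than 3, for example 783 against 564. Whether both reads of a pair were counted separately was not tested, so small counts may stand for fewer fragments. Lanes were summed. The 1 lane listed by gene symbol (lane 1 of the Tim-4- library of pair 793) was joined by order, where 67 of 67 histone symbols matched. Of 55604 identifiers, 98.57% were found in GENCODE M21. Summary lines that name no gene, 18.9% to 32.9% of reads in the 15 lanes that list them, were left out. The lanes of the Tim-4- library of pair 779 differed in reads aligned to several places, with 3153643 in 1 lane and 10020232 in the other. The part of this in the counts was not tested.

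Genes that reached 10 counts in 4 or more libraries were tested with edgeR 4.0.16 (R 4.3.3): TMM factors, robust quasi-likelihood fit, pair block, Benjamini-Hochberg adjustment over 16861 genes, threshold 0.05. Standard errors were derived from the fold change and its F value. The pair numbers come from the labels, and deviations from the group means correlated within each pair (0.277 to 0.498). RPKM used TMM-scaled counts and exon lengths from GENCODE. Alternatives were DESeq2 1.42.0, other scalings, no filter, no block, a 2-fold limit, lane 2 only, the symbol-listed lane left out, and each pair left out. In counts simulated for this comparison, with 200 of 16861 genes changed by 1.5 (log2), 96.3% of changed genes of at least 5 CPM and 5% of those below 1 CPM were recovered, 7.64% of calls were false, and a simulation with no change gave 0 calls.

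Named genes were, by rule, members that passed, the 2 tested members per class with the highest RPKM, Hist1h1c, Hist1h2bc and Hist2h2be, up to 4 genes that passed per list of machinery, chaperones and variants, and Slbp, Npat, Mki67, Pcna, H2afz, H3f3b and H1f0. Other tested members were named after their values were seen. The members and lists were chosen with earlier results of these data known. Zcchc6 and Zcchc11 were matched as Tut7 and Tut4, and 1 erythroid marker was not matched. Promoter sequences are from RefSeq. Other assays of the study were not used here.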

Additional observations from a re-analysis of the deposited data

Results flagged for a closer look

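Among 70 groups of 4 libraries examined for a library far from the other 3, 2 were found, and chance alone gives about 1 in 20. The summed level of H2A genes in Tim-4+ TAMs was 0.68 CPM in pair 784, beside 3.56 to 3.82 CPM in the other 3 libraries. Rbbp4 in Tim-4- TAMs was 109 CPM in pair 779, beside 93.8 to 95.3 CPM in the others.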

How the results depend on the processing

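The number of histone genes that passed was 0 in either direction under all alternatives, which tested 8 to 58 members with at most 3 at an unadjusted p under 0.05. With no filter on low counts 58 members were tested, with a median log2 fold change of -0.76, beside -0.05 over all genes. With a pair left out the median of the members was -0.26 to 0.07. Total counts per library gave -0.24 for the sums of H1 and of all classes and -0.15 for H2B. Leaving out a pair gave class sums of 0.06 to 0.16 (H1), -0.73 to -0.09 (H1 without Hist1h1c), -0.31 to 0.20 (H2A), 0.12 to 0.32 (H2B), -0.19 to 0.54 (H3) and -0.41 to 0.05 (H4). The count of members lowest in pair 784 in both subsets was 13 to 15 under 4 alternatives added after seeing the data.

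The numbers of genes lower in Tim-4+ TAMs, in the order of the lists for processing, decay, chaperones, variants, S phase and G2/M, were 6, 4, 13, 6, 27 and 17 with total counts and 0 in each with no replicate block. With a 2-fold change also asked for they were 0, 0, 0, 0, 2 and 0. DESeq2 called 23 S phase genes and 2 variants lower, and 1 processing gene, 1 decay gene and 2 variants higher. The variants that were lower numbered 0 with DESeq2-type size factors or lane 2 only and 2 with no filter. The processing genes that were lower numbered 0 without the symbol-listed lane. With a pair left out, the ranges in the order of the lists were 0 to 0, 0 to 0, 0 to 8, 0 to 3, 0 to 12 and 0 to 6.

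Of the log2 fold changes of named genes, these changed sign: with total counts Hist1h1c (-0.22), Hist1h4i (-0.20), Hist2h2be (-0.15) and H3f3b (-0.06); with no replicate block Hist1h2bg (0.02), Hist3h2a (0.10), Hist1h2ac (0.59) and Hist4h4 (0.10); with lane 2 only Hist1h3d (-0.33). With a pair left out, Hist1h2bg (-0.31 to 0.02), Hist3h2a (-0.23 to 0.18), Hist1h2ac (-1.14 to 0.41), Hist4h4 (-1.71 to 0.12) and Npat (-0.13 to 0.05) took both signs. The causes were not tested. Below 1 CPM, depth limits what could be detected.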

Other observations

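Among the 10287 genes averaging 5 CPM or more, those with a larger fall than Hist1h1c in pair 784 against the mean of the other 3 pairs, taking the smaller fall of both subsets, were Zbtb16, Abcg3, Gpr34, Rnf150, Engase and Hba-a1. Hba-a1 was not the lowest in pair 784 in Tim-4- TAMs. These genes were named after their values were seen. Zbtb16, a zinc finger transcription factor, had 0.72 CPM in pair 784 beside 5.52 to 135 CPM in the other Tim-4+ libraries, and 0.12 beside 2.40 to 15.6 CPM in the other Tim-4- libraries. Cd83, an activation marker of antigen-presenting cells, ranked 9, with 30.9 CPM in Tim-4+ TAMs of pair 784 beside 80.2 to 214, and 30.1 in Tim-4- TAMs beside 65.7 to 236 CPM. Hba-a1, an adult alpha globin gene, was at 49.7 and 14.3 CPM in pair 783 and at most 0.67 CPM in the other libraries.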
